A study of Homo sapiens with 6 samples.

Results

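The 10 genes described here belong to the endoplasmic reticulum (ER) stress response and the integrated stress response, and they were measured in MCF-10A, an immortal but not transformed human breast epithelial line, with and without extra MBD2, a protein that binds methylated DNA. They are ATF3, ATF4, DDIT3, ASNS, TRIB3, CHAC1, SESN2, HSPA5, XBP1 and PPP1R15A. The genes were chosen by name, and every probe set was kept whose platform annotation gave one of these symbols and no other. All 10, of 19775 genes on the array, were measured, by 18 of the 41091 probe sets with a single symbol and of 54675 probe sets in all. ATF4, DDIT3 and CHAC1 had 1 probe set each, 6 genes had 2 and ATF3 had 3. In the names of probe sets the endings _s_at and _a_at mark those that can match more than 1 transcript.

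Messenger RNA was read on Affymetrix U133 Plus 2.0 arrays of human genes, 3 from control MCF-10A cells and 3 from MCF-10A cells infected with a lentivirus that carries MBD2, and both groups were grown in the same mammary epithelial medium. The virus was packaged in HEK293 cells. The promoter that drives MBD2, the time after infection and whether infected cells were selected are not given in the sources used here, and 1 cell line was used. The submitters describe controls without infection and technical replicates, whereas the methods of the study describe an empty virus and biological replicates. The treatment label of the MBD2 samples reads MBD2 transfection, while the methods describe infection with the lentivirus. No source says that the arrays came from separate cultures, so each p-value measures only the spread between these arrays, which may be technical. All values are log2 intensities normalized with RMA (robust multi-array averaging) by the authors, and a probe set was called higher or lower in MBD2 cells at an adjusted p under 0.05 in limma and a fold change of at least 1.5.

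MBD2 itself, read by its brightest probe set, lay between 8.92 and 9.68 on the control arrays and between 11.72 and 12.50 on the MBD2 arrays (log2 fold change 2.92 ± 0.28, standard error; limma, adjusted p = 0.0157), while its 3 dimmer probe sets had log2 fold changes from -0.08 to 0.11. Keratins and other markers of basal mammary epithelium were bright, with group means from 9.13 to 14.23 for the 7 measured of 9. Of these 7, 0 were called, and their median log2 fold change was -0.41. All MBD2 arrays lay below all controls for KRT5 (-1.26) and KRT14 (-0.56) and above them for ITGB4 (0.81). Among all genes 14.6% lay wholly below and 10.4% wholly above. Markers of endothelial cells and of HEK293 cells had group means from 3.61 to 5.99 and from 3.13 to 5.57, with 0 of 5 and 0 of 5 called. Of 5 measured leukocyte markers, 1 was higher (LAPTM5, log2 fold change 2.52) while PTPRC, the common leukocyte antigen, lay between 3.50 and 4.03, CD14 had -3.07 without passing (adjusted p = 0.0509 from limma), and of 6 luminal markers 1 was higher (KRT8, 2.02). Of the 6 fibroblast markers none passed, although DCN reached 12.57 and LUM 9.63 on MBD2 array 1, above every other array. The part of these markers in the results below was not tested. Control arrays 1 and 2 were nearly alike, with 26 probe sets over 2-fold apart, as were MBD2 arrays 2 and 3, with 148. Control array 3 lay over 2-fold from the mean of the other controls in 2984 probe sets, and MBD2 array 1 over 2-fold from the mean of the other MBD2 arrays in 5265. A list of 20 mitosis genes had a median difference from the control mean of 0.58, 0.57 and -1.12 on control arrays 1, 2 and 3 and of -0.53, 1.68 and 1.49 on MBD2 arrays 1, 2 and 3. The hybridization controls, which are RNAs spiked into each sample, averaged between 10.96 and 11.33 on the controls and MBD2 array 1, and 9.94 and 10.01 on MBD2 arrays 2 and 3.

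The integrated stress response begins when a kinase phosphorylates the translation initiation factor eIF2, which slows protein synthesis and favours translation of ATF4. ATF4 is a bZIP transcription factor that turns on genes of amino acid supply and, under lasting stress, DDIT3 (CHOP), TRIB3 and CHAC1. PERK, the eIF2 kinase of the ER, is also 1 of the sensors of the unfolded protein response, beside IRE1, which splices XBP1 mRNA, and ATF6, which raises chaperones such as HSPA5 (BiP). ATF4 is largely controlled at translation and XBP1 by splicing, and an array of this kind reads neither step: it reads the amount of mRNA that matches its probes.

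Sequence elements that these factors are known to bind were searched on both strands in the RefSeq promoter windows of the genes (assembly GRCh38.p14, 250 bases before to 50 bases after each annotated start, 17 windows for the 10 genes). The C/EBP-ATF response element (CARE) was searched as TGATGNAA, the ER stress response element (ERSE) as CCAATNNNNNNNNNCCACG, the cAMP response element (CRE) as TGACGTCA and the element of XBP1 and ATF6 (UPRE) as TGACGTGG. A match was found in 6 genes, shown here with the matching letters in capitals and 26 bases to each side. The stretches show which windows hold letters of an element of ATF4 and related bZIP factors and which hold those of the ER stress element.
ASNS, CARE, chr7:97872443-97872502, minus strand: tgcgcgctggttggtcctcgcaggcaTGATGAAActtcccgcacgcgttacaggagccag
ATF3, CARE, chr1:212565190-212565249, plus strand: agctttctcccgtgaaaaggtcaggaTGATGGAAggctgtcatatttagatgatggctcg
CHAC1, CARE read on the opposite strand, chr15:40953236-40953295, plus strand: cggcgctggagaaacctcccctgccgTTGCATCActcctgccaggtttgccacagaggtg
PPP1R15A, CRE, chr19:48872337-48872396, plus strand: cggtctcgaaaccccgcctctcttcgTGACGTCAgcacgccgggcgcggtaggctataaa
HSPA5, ERSE, chr9:125241365-125241435, minus strand: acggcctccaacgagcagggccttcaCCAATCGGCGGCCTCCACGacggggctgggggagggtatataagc
XBP1, ERSE, chr22:28800577-28800647, minus strand: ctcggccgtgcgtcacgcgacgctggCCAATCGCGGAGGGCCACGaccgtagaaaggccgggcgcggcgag

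Distances are to the annotated start that defines the window, 1 of 2 for ASNS, ATF3 and XBP1. The capitals begin 68 bases before it for ASNS, 191 for ATF3, 209 for CHAC1, 58 for PPP1R15A, 66 for HSPA5 and 52 for XBP1. Of 35116 promoter windows of the same length, 3.62% held the CARE letters, 1.85% the CRE, 0.729% the UPRE and 0.0769% the ERSE. ATF4, DDIT3, TRIB3 and SESN2 held none of these letters in their windows, and none of the 10 genes held the UPRE. Elements outside the windows or in other spellings were not searched. The arrays measure mRNA and not binding, so the letters describe the promoters only.

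None of the 10 genes passed the test between MCF-10A cells overexpressing MBD2 and control cells. Of the 18 probe sets, 0 were higher and 0 were lower in limma, against 0.898% called higher and 0.978% called lower among all 41091. At an unadjusted p under 0.05 the count was also 0 of 18, against 16.5% of all probe sets. The adjusted p ran from 0.381 for SESN2 to 0.988 for XBP1, and the median log2 fold change of the 18 was -0.04, beside -0.00466 over all probe sets. In 0 of the 18 did the MBD2 arrays lie wholly above or wholly below the control arrays, which happened in 10.4% and 12.3% of all probe sets. In RNA from whole cultures, fewer cells with a transcript and less of it per cell cannot be told apart. A p that misses the threshold does not show that the levels were alike, and the 95% intervals of the log2 fold changes had half-widths from 0.28 to 4.08.

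**Figure D1:**
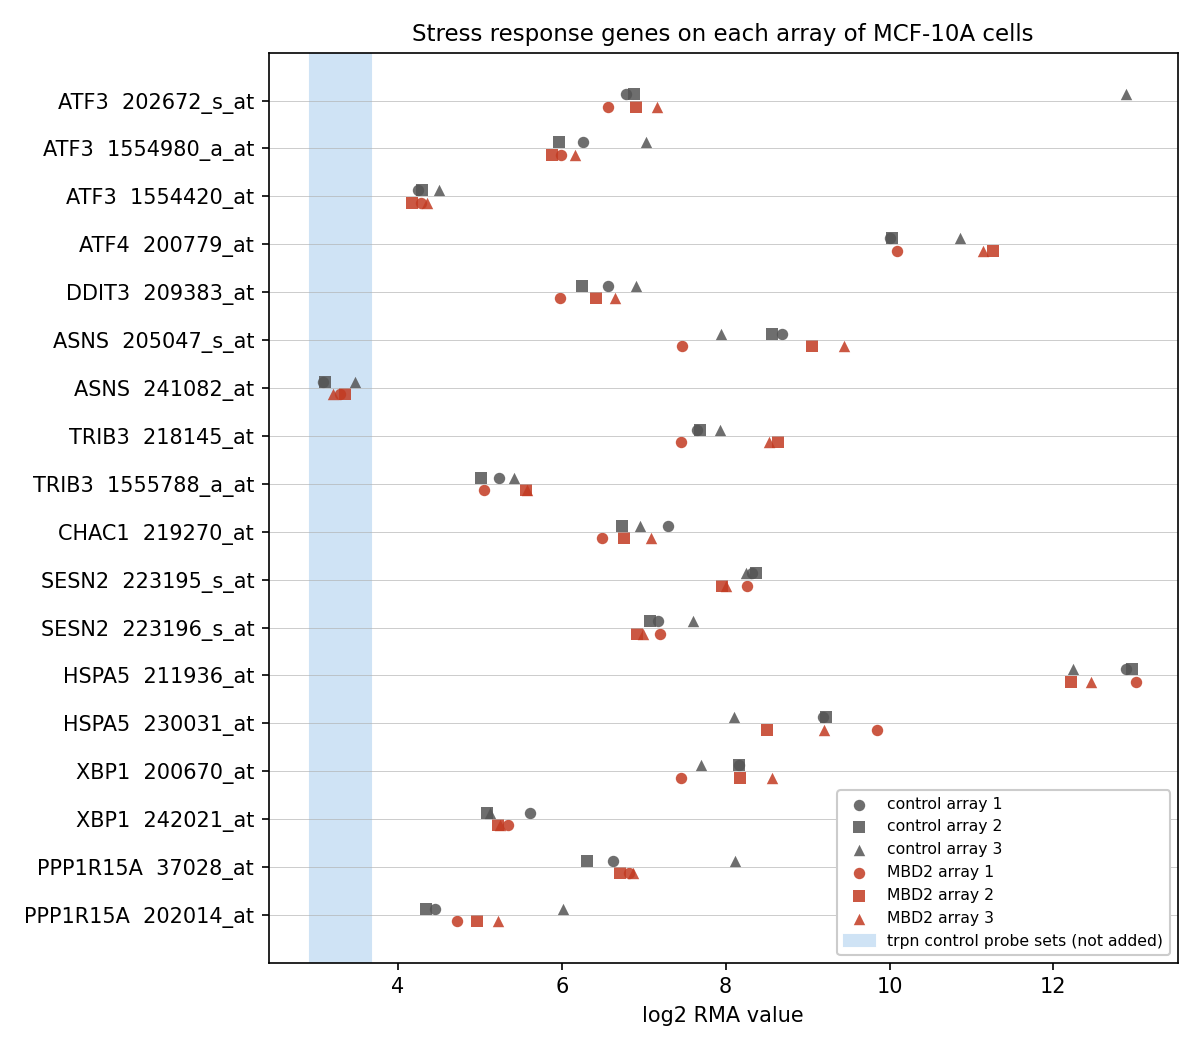
Log2 RMA value (x axis) of each of the 18 probe sets (y axis) on 3 control arrays (grey) and 3 MBD2 arrays (red), with the array number given by the marker shape and the range of the trpn probe sets, a background level, in blue. The groups overlap in all 18, and ATF3 on control array 3 lies at 12.88, far to the right of the other 5 arrays.

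Of the transcription factors, ATF4 had its highest values on MBD2 arrays 2 and 3, ATF3 had its highest on control array 3, and no array stood apart for DDIT3. ATF4, the factor that carries the response to its target genes, lay at 10.01, 10.03 and 10.86 on control arrays 1, 2 and 3 and at 10.09, 11.26 and 11.14 on MBD2 arrays 1, 2 and 3. MBD2 arrays 2 and 3 were above all controls, but MBD2 array 1 lay beside control arrays 1 and 2. The group means were 10.30 ± 0.48 and 10.83 ± 0.65 (SD, n = 3 each), a log2 fold change of 0.53 (95% interval -0.43 to 1.49, adjusted p = 0.562 from limma).

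ATF3 is a stress-induced bZIP factor that can repress as well as activate its targets. Its brightest probe set, 202672_s_at, lay at 6.78, 6.88 and 12.88 on control arrays 1, 2 and 3 and at 6.56, 6.91 and 7.17 on MBD2 arrays 1, 2 and 3. A single array therefore carried the difference: the control mean was 8.85 ± 3.50 and the MBD2 mean 6.88 ± 0.30 (SD, n = 3 each), with a log2 fold change of -1.97 (95% interval -6.05 to 2.11, adjusted p = 0.613 from limma) that became 0.05 without control array 3. The second probe set, 1554980_a_at, lay at 6.26, 5.96 and 7.02 in the controls and at 5.99, 5.88 and 6.16 in MBD2 cells, with control array 3 again the highest (log2 fold change -0.40, adjusted p = 0.533 from limma). Control array 3 stood 6.05 above the mean of control arrays 1 and 2 on the first probe set and 0.91 on the second. The third, 1554420_at, was dim, with means of 4.35 and 4.27, and moved by -0.08.

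DDIT3 encodes CHOP, a bZIP factor that promotes cell death under lasting ER stress. It lay at 6.57, 6.25 and 6.91 in the controls and at 5.98, 6.41 and 6.65 in MBD2 cells. The ranges overlapped over most of their length, and the log2 fold change was -0.23 (95% interval -0.81 to 0.36, adjusted p = 0.692 from limma).

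Among the targets of ATF4, ASNS and TRIB3 had, on their brighter probe sets, their 2 highest values on MBD2 arrays 2 and 3 and their lowest on MBD2 array 1, and CHAC1 and SESN2 spread less. ASNS makes asparagine and has the CARE letters nearest to the annotated start among the 3 genes shown with them. It was read by 205047_s_at at 8.68, 8.57 and 7.94 in the controls and at 7.46, 9.05 and 9.45 in MBD2 cells. The MBD2 arrays thus lay on both sides of all controls, with an SD of 1.05 against 0.40, and the log2 fold change was 0.25 (95% interval -1.07 to 1.57, adjusted p = 0.859 from limma). Its other probe set, 241082_at, stayed between 3.09 and 3.48 on all 6 arrays, inside the range of 2.93 to 3.67 of the probe sets for trpn, a bacterial transcript that no sample received. That probe set therefore carries no information on ASNS.

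TRIB3, a pseudokinase that ATF4 and CHOP induce and that restrains them in turn, had a similar arrangement on both of its probe sets. On 218145_at it lay at 7.65, 7.69 and 7.93 in the controls and at 7.45, 8.64 and 8.53 in MBD2 cells. MBD2 array 1 was the lowest of the 6 and the other MBD2 arrays the highest, which gave a log2 fold change of 0.45 (95% interval -0.36 to 1.26, adjusted p = 0.557 from limma). The dimmer 1555788_a_at gave 5.23, 5.01 and 5.41 in the controls and 5.05, 5.56 and 5.58 in MBD2 cells, a log2 fold change of 0.18 (adjusted p = 0.698 from limma).

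CHAC1 encodes an enzyme that breaks down glutathione and is a late target of ATF4. It lay at 7.30, 6.73 and 6.95 in the controls and at 6.49, 6.76 and 7.09 in MBD2 cells, so that both groups crossed, with a log2 fold change of -0.21 (95% interval -0.74 to 0.31, adjusted p = 0.670 from limma). SESN2, a leucine-binding inhibitor of mTORC1 signalling, had the smallest adjusted p of the 18 probe sets. Its brighter probe set, 223195_s_at, lay at 8.31, 8.37 and 8.25 in the controls and at 8.26, 7.96 and 8.003 in MBD2 cells. MBD2 array 1 lay between the controls and the other 2 were below them, and the log2 fold change was -0.24 (95% interval -0.53 to 0.05, adjusted p = 0.381 from limma). The dimmer 223196_s_at gave a log2 fold change of -0.25 (adjusted p = 0.535 from limma), with MBD2 array 1 again inside the control range, at 7.20.

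PPP1R15A, known as GADD34, brings a phosphatase to eIF2 and so ends the translational arrest, and like ATF3 it was highest on control array 3. Its probe set 37028_at lay at 6.62, 6.31 and 8.12 in the controls and at 6.82, 6.71 and 6.86 in MBD2 cells. Its probe set 202014_at lay at 4.45, 4.35 and 6.01 in the controls and at 4.72, 4.97 and 5.22 in MBD2 cells. On both, the 3 MBD2 arrays sat above control arrays 1 and 2 and below control array 3. The log2 fold changes were -0.22 (95% interval -1.36 to 0.92) and 0.03 (95% interval -1.11 to 1.17), with adjusted p = 0.859 and 0.982 from limma.

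HSPA5 and XBP1, the genes whose promoter windows hold the ERSE letters, read the branch of the response that acts on the ER itself. HSPA5 encodes BiP, the main chaperone of the ER lumen, and its probe set 211936_at was the brightest of the 18 by group means, at 12.89, 12.96 and 12.24 in the controls and 13.01, 12.22 and 12.46 in MBD2 cells. Control array 3 and MBD2 arrays 2 and 3 were the lower ones and the other 3 arrays lay close together, which cut across the groups (log2 fold change -0.13, 95% interval -0.82 to 0.56, adjusted p = 0.861 from limma). The second probe set, 230031_at, lay at 9.19, 9.23 and 8.11 in the controls and at 9.84, 8.50 and 9.20 in MBD2 cells. It had a log2 fold change of 0.34 (95% interval -0.76 to 1.43, adjusted p = 0.762 from limma), of opposite sign to the first. On both probe sets control array 3 was the lowest control and MBD2 array 1 the highest MBD2 array.

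XBP1 encodes the bZIP factor made from the mRNA that IRE1 splices, and these probe sets do not tell the spliced from the unspliced form. Its brighter probe set, 200670_at, lay at 8.17, 8.16 and 7.69 in the controls and at 7.46, 8.18 and 8.57 in MBD2 cells. MBD2 arrays lay both below and above the controls, for a log2 fold change of 0.06 (95% interval -0.70 to 0.82, adjusted p = 0.947 from limma). The dimmer 242021_at lay between 5.09 and 5.61 on all 6 arrays and moved by -0.00776 (adjusted p = 0.988 from limma).

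Within the groups, control array 3 and MBD2 array 1 stood apart for several of the genes. Control array 3 was the highest control in 11 of the 18 probe sets and the lowest in 5. It lay over 2-fold from the mean of the other controls in 4 of 18 (ATF3, both probe sets of PPP1R15A and HSPA5), beside 7.26% of all probe sets. By this difference ATF3 ranked 3 among 41091 from the top, and the probe sets of PPP1R15A ranked 293 and 314. HSPA5 went the other way, by -0.68 and -1.10 on its probe sets. MBD2 array 1 was the lowest MBD2 array in 9 of the 18 and the highest in 5. It lay over 2-fold from the mean of the other MBD2 arrays in 3 of 18, namely ASNS by -1.79, TRIB3 by -1.13 and ATF4 by -1.12, beside 12.8% of all probe sets. HSPA5 again had the opposite sign, with 0.67 and 0.99. The mitosis list was low on these same 2 arrays, and its part in these differences was not tested.

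**Figure D2:**
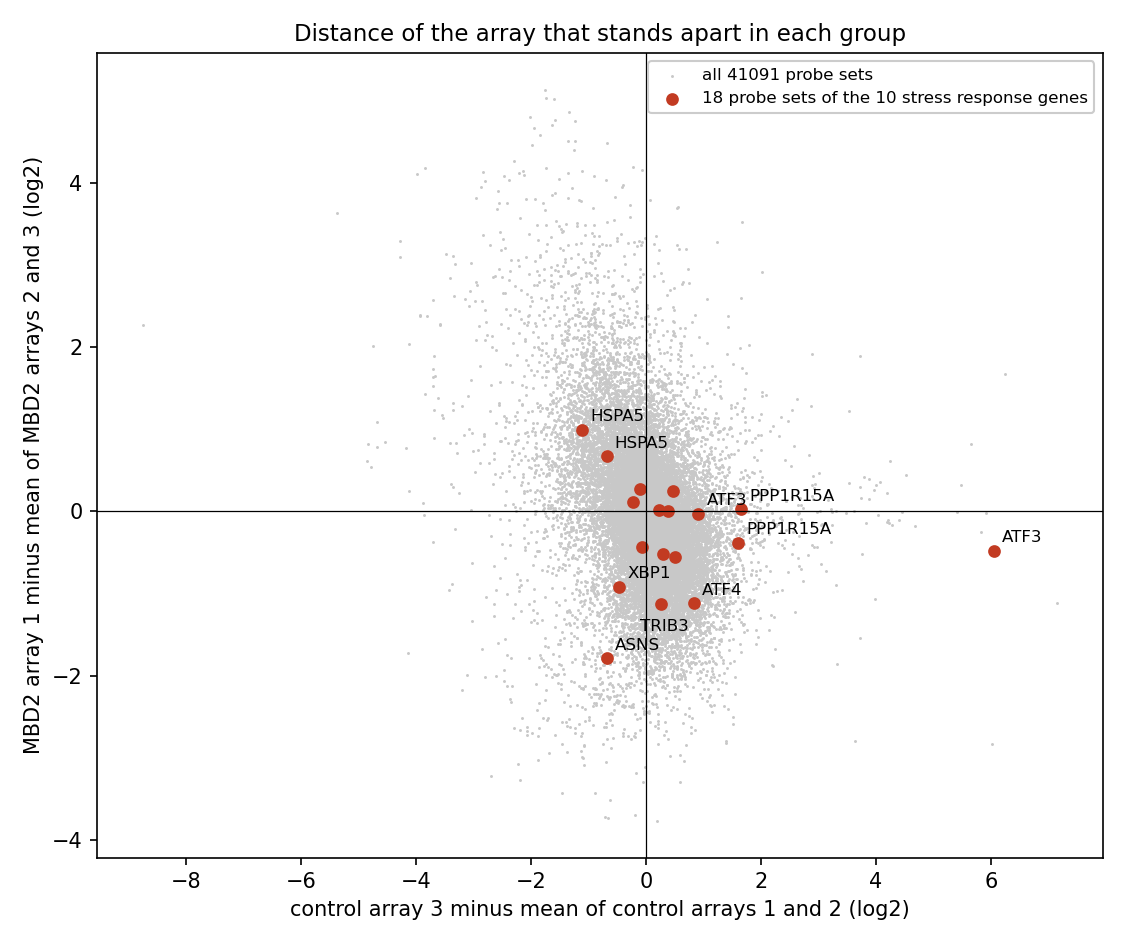
Control array 3 minus the mean of control arrays 1 and 2 (x axis, log2) against MBD2 array 1 minus the mean of MBD2 arrays 2 and 3 (y axis, log2) for 41091 probe sets (grey points) and for the 18 of the stress genes (red points, named where far from 0). ATF3 lies at 6.05 on the x axis, PPP1R15A at 1.65 and 1.61, while ASNS lies at -1.79 on the y axis and HSPA5 lies on the upper left.

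When control array 3 and MBD2 array 1 were both left out, a setting chosen after seeing the data, ATF4 and 1 of the 2 probe sets of each of TRIB3, ASNS and PPP1R15A were higher on the remaining MBD2 arrays. In limma 4 of 18 probe sets were then higher and 0 lower, against 15.5% and 9.96% of all 41091 probe sets, so that the count upward lay near the background share. They were ATF4 (log2 fold change 1.18, adjusted p = 0.000144), TRIB3 218145_at (0.91, adjusted p = 0.000498), PPP1R15A 202014_at (0.70, adjusted p = 0.00385) and ASNS 205047_s_at (0.62, adjusted p = 0.0136). The brighter probe set of PPP1R15A, 37028_at, had 0.32 (adjusted p = 0.126) and the dimmer one of TRIB3, 1555788_a_at, had 0.45 (adjusted p = 0.0259), and neither was called. ATF3 on 202672_s_at had 0.21 (adjusted p = 0.290) and DDIT3 0.12 (adjusted p = 0.601). HSPA5 on 211936_at had -0.58 with an adjusted p of 0.00863, at a fold change just short of 1.5, and was not called. SESN2 on 223195_s_at had -0.36 (adjusted p = 0.0414), also below that fold. The MBD2 arrays lay wholly above the controls in 9 and wholly below in 3 of the 18, beside 36.4% and 30.1% of all probe sets. These 2 pairs are the arrays that hardly differ within a group, and the 2 MBD2 arrays are those with the lower hybridization controls, so in this setting the group and the level of the hybridization controls cannot be told apart. Signs of RNA quality and of cell division also separate these pairs. The 3′ minus 5′ difference of GAPDH was 2.03 and 2.52 on control arrays 1 and 2 and 1.49 and 1.52 on MBD2 arrays 2 and 3, and that of ACTB was 3.95 and 4.57 against 3.45 and 3.44. The mitosis medians were 0.58 and 0.57 against 1.68 and 1.49, and the part of these differences was not tested.

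With MBD2 array 1 alone left out, 1 of 18 probe sets was higher, TRIB3 on 218145_at (log2 fold change 0.83, adjusted p = 0.0164 from limma), against 8.8% of all. With control array 3 alone left out, 0 of 18 passed in either direction, against 0.944% higher and 1.24% lower of all. The fold rule in the methods of the study, applied here as every MBD2 array over 1.5 times or under 0.5 times the control mean with no test, counted 1 probe set of the 18 as lower, ATF3 on 202672_s_at, against 1.4% of all. That entry rests on control array 3.

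**Figure D3:**
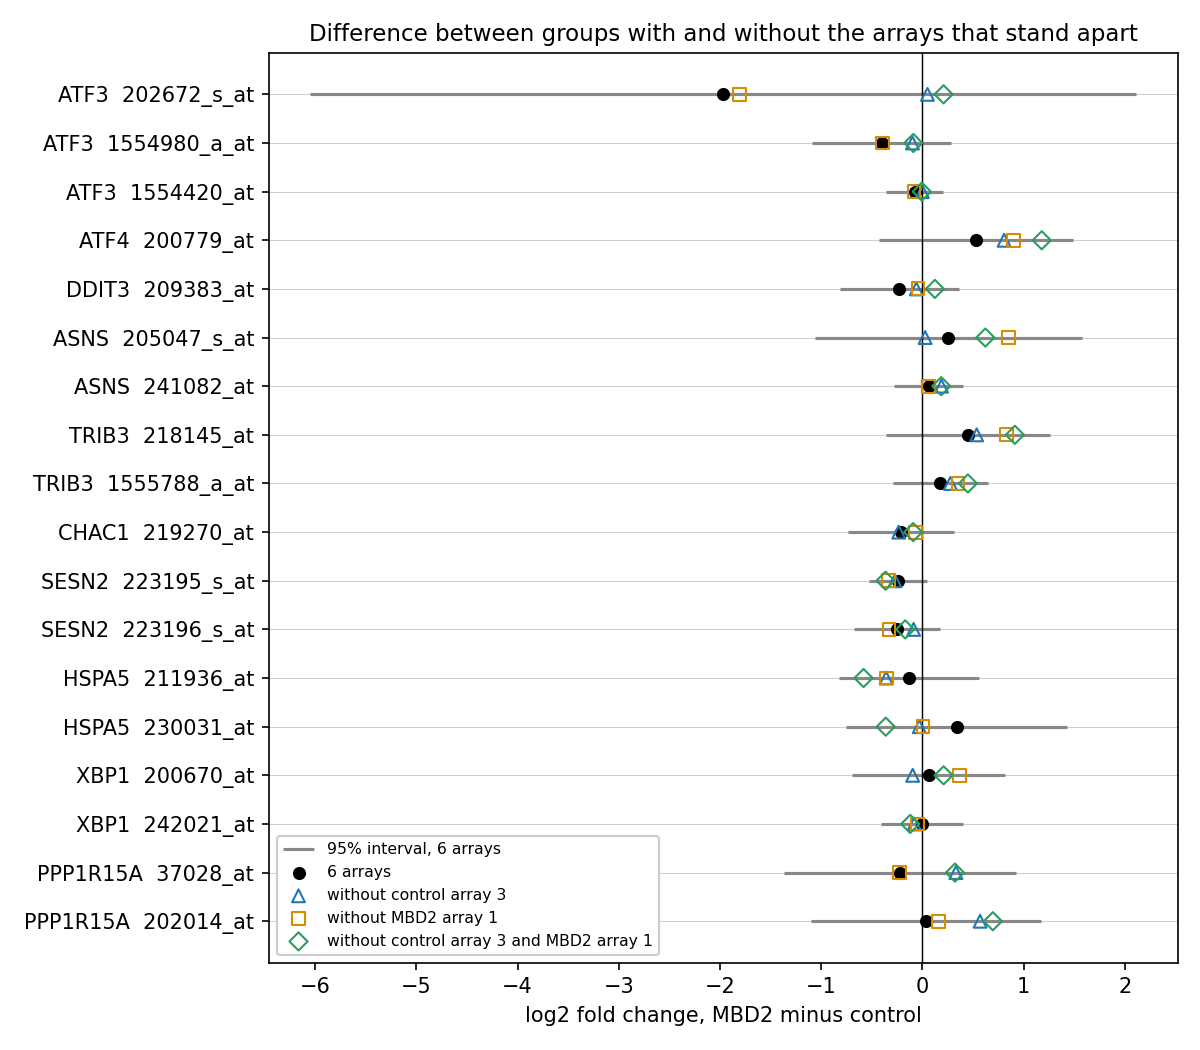
Log2 fold change of the 18 probe sets, MBD2 minus control (x axis), with all 6 arrays (black points, with 95% intervals from limma as grey lines) and without control array 3, MBD2 array 1 or both (open symbols). All 18 intervals cross 0, and ATF3 moves from -1.97 to 0.05 without control array 3 while ATF4 moves from 0.53 to 1.18 without both arrays.

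Around these genes, 9 lists of the same pathways were counted, with each gene read by its brightest probe set. Of 134 genes 125 were measured, of which 1 was higher and 0 were lower in MBD2 cells, against 1.04% and 1.28% of 19775 genes. The gene was SEC24D, a subunit of the COPII coat that carries proteins out of the ER, at 6.99, 7.15 and 7.46 in the controls and at 8.89, 9.04 and 9.54 in MBD2 cells. All its MBD2 values were above all its control values, with a log2 fold change of 1.96 (95% interval 1.44 to 2.48, adjusted p = 0.0201 from limma) and of 0.96 (adjusted p = 0.0443) with the mean of its probe sets. The call was lost with the replicate number as a block, with the nearly alike arrays averaged, and when any 1 of the 4 nearly alike arrays was left out. Groups did not overlap in 15 genes of the lists upward (12%) and in 9 downward (7.2%), beside 10.4% and 14.6% of all genes. The median log2 fold change of the 125 was -0.01, and that of all genes was -0.02.

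The 17 measured genes in the list of other ATF4 and DDIT3 targets had the highest median, 0.36, with 7 genes wholly higher in MBD2 cells and 1 wholly lower, and 0 called. STC2, a secreted glycoprotein, lay at 9.24, 9.32 and 7.05 in the controls and at 11.65, 10.02 and 10.87 in MBD2 cells (log2 fold change 2.31, adjusted p = 0.205 from limma). MAP1LC3B, which coats autophagosomes, had a log2 fold change of 1.64 (adjusted p = 0.0897), and VLDLR, a lipoprotein receptor, 1.41 (adjusted p = 0.0843). In these 3 genes every MBD2 array lay above every control array, without passing the test.

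Lists of amino acid supply and of translation also held no called gene. Of 11 genes of amino acid and one-carbon synthesis (median 0.04), MTHFD1L, a mitochondrial folate enzyme, was wholly higher at a log2 fold change of 0.20, near background with means of 3.72 and 3.92. Of 10 amino acid transporters (median -0.11), SLC43A1 was wholly lower, at -0.10 (adjusted p = 0.644 from limma), and also dim with means of 4.20 and 4.10. Of 11 cytosolic aminoacyl-tRNA synthetases (median 0.35), WARS1 was wholly higher, at 9.90, 9.89 and 9.81 in the controls and 10.20, 10.61 and 10.76 in MBD2 cells (0.66, adjusted p = 0.128 from limma). A list of 13 genes (median 0.21) held eIF2 kinases other than PERK, phosphatase cofactors, subunits of eIF2 and eIF2B, and EIF2A, a separate initiation factor. Among them EIF2AK2, the kinase activated by double-stranded RNA, had 0.83 (adjusted p = 0.210 from limma). PPP1R15B, the constitutively expressed relative of PPP1R15A, had -0.31 (adjusted p = 0.244 from limma). EIF2AK3, which encodes PERK, was counted among the sensors.

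In the lists of the ER branch and of bZIP factors the medians lay below 0, and SEC24D was the only gene called. Of 11 sensors of the unfolded protein response (median -0.10), ATF6B, a relative of ATF6, was wholly lower, at 7.66, 7.52 and 7.66 in the controls and 7.19, 6.64 and 6.72 in MBD2 cells (-0.76, adjusted p = 0.101 from limma). Of 20 ER chaperones and folding enzymes (median -0.16), ERO1B and P4HB, which act in disulfide bond formation, were wholly higher, at 0.85 (adjusted p = 0.299) and 0.67 (adjusted p = 0.132). Of 20 genes of ER-associated degradation and translocation (median -0.02), ERLEC1, a lectin that binds misfolded glycoproteins, had 0.93 (adjusted p = 0.216), and EDEM2, a mannosidase that trims them, had -1.24 (adjusted p = 0.180). Of 12 bZIP partners and relatives of ATF4 (median -0.10), CREM had 0.94 (adjusted p = 0.232), CEBPD -1.14 (adjusted p = 0.176) and CEBPG -0.75 (adjusted p = 0.216).

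**Figure D4:**
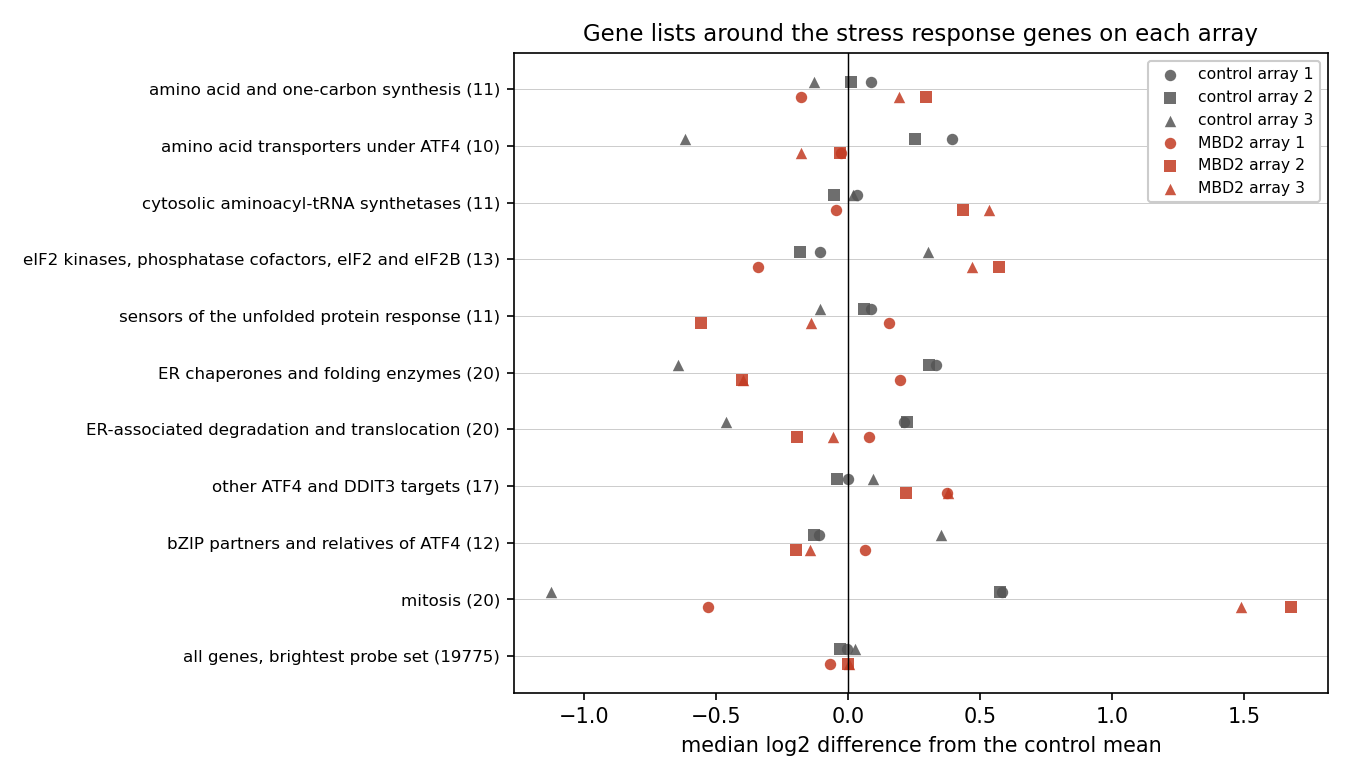
Median log2 difference from the control mean (x axis) of the measured genes of 9 pathway lists, of 20 mitosis genes and of all 19775 genes (y axis, number of genes in brackets) on each control array (grey) and MBD2 array (red). The ER chaperones lie at -0.65, -0.40 and -0.40 on control array 3 and MBD2 arrays 2 and 3 and above 0 on the other 3 arrays, and the mitosis list spans -1.12 to 1.68.

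The medians of several lists split the arrays across the groups. The ER chaperones had medians of 0.33, 0.31 and -0.65 from the control mean on control arrays 1, 2 and 3 and of 0.20, -0.40 and -0.40 on MBD2 arrays 1, 2 and 3, low on the same 3 arrays as HSPA5 on 211936_at. The sensors and the genes of ER-associated degradation were also below 0 on these 3 arrays and above 0 on the others. The list of eIF2 and its kinases had -0.11, -0.18 and 0.30 on the controls and -0.34, 0.57 and 0.47 on the MBD2 arrays, with the same 3 arrays highest as for ATF4. The setting without control array 3 and MBD2 array 1 was chosen after seeing the data. In it the group cannot be told apart from the level of the hybridization controls, and signs of RNA quality and cell division also differ. With the nearly alike arrays averaged instead, limma called 0 of all 41091 probe sets. Without those 2 arrays, 28 of the 125 genes were higher (22.4%) and 33 lower (26.4%) in limma, against 16.8% and 10.6% of all genes. Of these, 7 of 13 genes of the eIF2 list, which leaves out PERK, were higher and 0 lower. Among them were EIF2S2, the beta subunit of eIF2 (log2 fold change 1.68), EIF2B3, a subunit of its exchange factor (1.10), and EIF2A, a separate initiation factor (0.80). Of the 11 synthetases, 4 were higher and 0 lower. Of the 20 ER chaperones 12 were lower and 1 was higher, with PDIA4, a protein disulfide isomerase, at -1.78 and HYOU1, a chaperone of the BiP family, at -0.94. Of the 11 sensors 6 were lower and 1 higher, with ERN1, which encodes IRE1, at -1.78. EIF2AK3, which encodes the eIF2 kinase PERK and was counted with the sensors, was among the lower ones (-0.76, adjusted p = 0.0223 from limma). The remaining lists did not all move 1 way. Of the 10 amino acid transporters 0 were higher and 3 lower, and of the 17 other ATF4 and DDIT3 targets 7 were higher and 3 lower. Amino acid and one-carbon synthesis had 2 higher and 1 lower of 11, ER-associated degradation and translocation 4 and 6 of 20, and the bZIP factors 2 and 2 of 12. The median distance of control array 3 from the mean of the other controls was -0.97 for the ER chaperones, -0.16 for the sensors and 0.46 for the eIF2 list, and the median difference between the remaining pairs was -0.72, -0.59 and 0.80. Without MBD2 array 1 alone, 14 of the 125 genes were higher and 6 lower, against 9.55% and 5.52% of all genes. Without control array 3 alone 3 were higher and 2 lower, against 1.16% and 1.56%, and by the methods' fold rule 9 were higher, against 3.47%.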

How the data were processed

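RNA of 3 control and 3 MBD2 samples of MCF-10A cells was hybridized to 1 array each. The values deposited by the authors are log2 intensities of probe sets after RMA, for which the processing notes of the submitters give RMA and affy with no version. Arrays give no counts, so their number limits the precision. Probe sets were named through the platform annotation, leaving out 1801 with several symbols (none of them with one of the 10 genes), 11721 with no symbol and 62 array controls. Groups were taken from the treatment label.

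On these values limma 3.58.1 was run in R 4.3.3 over 41091 probe sets, with group as the single term of lmFit, eBayes (prior degrees of freedom 1.95) and p-values adjusted by Benjamini-Hochberg over all of them. Dim probe sets were kept. A fold change is the MBD2 mean minus the control mean on the log2 scale. The fit was tested on simulated data with the spread of the real probe sets, 50 of them changed by each fold. It called 2% of those changed 1.5-fold, 32% of those changed 2-fold, 68% of those changed 4-fold and 86% of those changed 8-fold. The 10 genes, the pathway lists and the marker lists were chosen with earlier results of these data known. Beside the 10 genes the text names MBD2, the marker genes that passed or stood apart and, per pathway list, called genes (up to 4) or, where fewer than 2 were called, genes without overlap, up to 3 in all. Further genes, named where single arrays or the setting without 2 arrays are described, were chosen after their values were seen. Promoter windows came from RefSeq (GRCh38.p14). Alternatives were the probe sets entered (the brightest, the mean or those without an ending for shared sequence), a minimum mean of 5, centring on housekeeping genes, a second quantile normalization, a robust eBayes with a trend, a replicate block, averaging of the nearly alike arrays, other fold thresholds, the methods' fold rule and each array left out in turn. Leaving out control array 3 and MBD2 array 1 together was added after seeing the data.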

Additional observations from a re-analysis of the deposited data

How the results depend on the processing

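In the simulated data, with 3 arrays a group, most 2-fold changes were missed. The simulation drew independent noise for each array, whereas control arrays 1 and 2 and MBD2 arrays 2 and 3 are nearly alike. Its shares may therefore not carry over to these arrays. Over all probe sets 369 were higher and 402 lower, and leaving out 1 array gave 2 to 3616 and 18 to 1924. The count of the 18 probe sets called higher was 0 under every alternative except when arrays were left out. It was 0 to 1 without 1 array and 4 without both control array 3 and MBD2 array 1 (15.5% of all probe sets). The 1 came without MBD2 array 1 (8.8% of all). The count called lower was 0 except under the methods' fold rule (1, against 1.4% of all). Without both arrays the groups did not overlap upward in 9 and downward in 3 of the 18, beside 36.4% and 30.1% of all probe sets. Of the pathway genes, 0 were higher with the nearly alike arrays averaged, where limma called 0 of all probe sets (2747 at an unadjusted p under 0.05). Under the methods' fold rule 9 were higher (3.47% of all genes). Leaving out both arrays gave 28 higher and 33 lower, against 16.8% and 10.6% of all genes. Without 1 array the pathway genes called ran from 0 to 14 higher and from 0 to 6 lower. There were 14 and 6 without MBD2 array 1 (9.55% and 5.52% of all genes). Without control array 3 there were 3 and 2 (1.16% and 1.56%), and without any of the other 4 there were 0 and 0.

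Whether the replicate numbers pair the arrays cannot be settled from the values, because the array that stands apart in each group weighs most on the deviations. Same-numbered arrays had correlations of their deviations of 0.21, -0.33 and 0.28, and control array 2 went best with MBD2 array 1 (0.35). With the replicate block limma called 1 probe set higher and 23 lower in all, 0 and 0 of the 18, and 0 of the pathway genes.

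Of 263 values of the 18 probe sets under the alternatives, 26 changed sign, 5 newly passed the test and 232 did neither. Without both arrays the log2 fold change turned to 0.21 for ATF3 202672_s_at, 0.12 for DDIT3, -0.36 for HSPA5 230031_at and 0.32 for PPP1R15A 37028_at, and with the same sign it was -0.58 for HSPA5 211936_at, 0.70 for PPP1R15A 202014_at and -0.12 for XBP1 242021_at. With the nearly alike arrays averaged it turned to -0.00135 for ASNS 241082_at, 0.0945 for HSPA5 211936_at, -0.30 for PPP1R15A 202014_at, -0.0146 for XBP1 200670_at and 0.0489 for XBP1 242021_at. It was 0.10 for HSPA5 211936_at with the mean of its probe sets and -0.00636 for PPP1R15A 202014_at with housekeeping centring, which put the median of all probe sets at -0.04. Leaving out 1 array at a time gave -0.14 to 0.85 for ASNS 205047_s_at, -0.0082 to 0.19 for ASNS 241082_at, -3.00 to 0.05 for ATF3 202672_s_at, -0.39 to -0.04 for DDIT3, -0.36 to 0.0414 for HSPA5 211936_at, -0.03 to 0.68 for HSPA5 230031_at, -0.26 to 0.57 for PPP1R15A 202014_at, -0.57 to 0.33 for PPP1R15A 37028_at, -0.19 to 0.37 for XBP1 200670_at and -0.10 to 0.16 for XBP1 242021_at, with no change of sign for DDIT3 or the probe sets not listed. The cause of these changes was not tested.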

Other observations

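The genes named here, those that stood out with ATF3 on control array 3, were chosen after their values were seen. Probe sets were ranked by the distance of control array 3 from the mean of control arrays 1 and 2. The first were those of FOSB (7.15), ANXA1 (6.25), ATF3 (6.05), FOS (6.02) and EGR3 (5.92). Other probe sets of these genes are not given here. FOSB and FOS encode bZIP proteins of the AP-1 factor and EGR3 a zinc finger factor. No gene list was tested on this array. FOSB lay at 5.95, 5.92 and 13.09 on control arrays 1, 2 and 3 and between 5.90 and 7.18 on the MBD2 arrays. FOS lay at 4.42, 4.25 and 10.36 on the controls and at 4.31, 7.77 and 6.52 on MBD2 arrays 1, 2 and 3. ANXA1 on 233011_at, a calcium-dependent phospholipid-binding protein, lay at 5.69, 5.71 and 11.95 on the controls and at 5.70, 4.26 and 3.81 on the MBD2 arrays. Others near the top were KRT13, a keratin of stratified epithelia, at 7.86, 8.50 and 13.83 on the controls and 5.56, 4.63 and 4.85 on the MBD2 arrays, and FABP4, a fatty acid-binding protein, at 10.84 on control array 3 and 5.09 or less on the other 5 arrays. No difference between the groups passed the test for these probe sets.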
